A study of Mus musculus with 7 samples.

Results

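Oligodendrocytes are the myelin-forming glia of the central nervous system, and some neural stem cells of the subventricular zone give rise to them. Progenitors that express OLIG2 leave the cell cycle, pass through a premyelinating state in which TCF7L2 and BCAS1 appear, and then build myelin from lipids made with UGT8 and from structural proteins such as MOBP. The 6 genes described here, Olig2, Ptprz1, Tcf7l2, Bcas1, Ugt8a and Mobp, follow that order. They were chosen by membership of the lineage and by their adjusted p and fold change in the authors' deposited table, so these values are given as a description, with no test. The identifiers of all 6 were found, among 3389 listed genes.

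The cells were neural stem cells of the mouse subventricular zone, cultured with 20 ng/mL EGF and 20 ng/mL FGF-2, factors that keep such cells dividing. The shKAP1 group (4 samples) was nucleofected with short hairpin RNA against KAP1, and the control group (3 samples) is labelled as control cells, with no control hairpin named. KAP1 is the corepressor encoded by Trim28, which KRAB zinc finger proteins recruit to DNA. Strain, age, number of animals and time after nucleofection are not stated in the labels, and nothing says that the samples came from separate cultures, so a p-value speaks of the spread among these samples alone, which may be technical.

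Each line of the authors' deposited table is a gene with 1 mean normalized count over samples, 1 log2 fold change, the standard error (SE) of that change and an adjusted p from DESeq2. Values of single libraries are not in it, so depth and any overlap of the groups are unknown, and replicate error is seen only through the SE. It does not name its numerator. Trim28 is negative in it, at -1.17 (SE 0.05), so a negative sign was taken to mean lower in shKAP1, and the direction of every gene rests on that reading. The table lists 3389 of 12905 genes with an adjusted p (26.3%), of which 1621 were higher (12.6%) and 1768 lower (13.7%). All 6 lineage genes are among them by choice, so nothing is read from their number. Markers of neural stem cells could be checked only where they are listed: 6 of 19 were, 31.6% beside the background of 26.3%, all higher. These markers, among them Vim, Fabp7 and Nes, were abundant, with mean normalized counts of 37024 to 193157. The 13 other markers have no value here.

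The lineage genes did not move in 1 direction. The early genes Olig2 and Ptprz1 and the differentiation factor gene Tcf7l2 were modestly higher in shKAP1, Bcas1 and Ugt8a were lower, and Mobp, the latest gene of the order, was higher. In size, the changes ran from 1.15-fold for Olig2 to 2.04-fold for both Bcas1 and Mobp, in opposite directions. The median over all listed genes was 1.22-fold, at a median mean normalized count of 2885. Genes of low abundance have larger errors, so only larger changes of such genes could be listed. Bcas1, Ugt8a and Mobp lie far below that abundance, so the 1.22-fold is not a like comparison for them. Only 82 listed genes changed by at least 2-fold, 0.635% of the genes with an adjusted p, and Bcas1 and Mobp are 2 of them. A 95% interval wholly beyond 1.2-fold held for Bcas1, Ugt8a and Mobp. It held for 631 of the 3389 listed genes, 4.89% of the genes with an adjusted p. An adjusted p under 0.01 held for 5 of the 6 genes, without Olig2. It held for 2283 of the 3389 listed genes, 17.7% of the genes with an adjusted p. All 6 had a mean normalized count of at least 100, as did 3318 of the 3389 listed genes (25.7% of the genes with an adjusted p). Nearly every listed gene thus meets this limit. The 6 genes were chosen among listed genes, so shares of all genes with an adjusted p do not show how unusual they are. In bulk RNA, fewer cells of a type and less RNA per cell cannot be told apart.

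**Figure D1:**
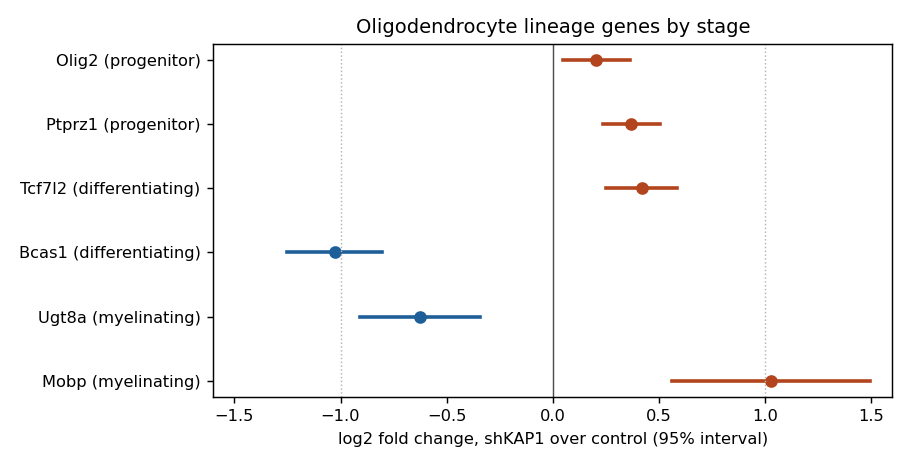
Log2 fold change of shKAP1 over control for the 6 genes, ordered from progenitor (top) to myelinating (bottom), with points at the authors' estimates, bars for the 95% interval and dotted lines at 2-fold. Olig2, Ptprz1, Tcf7l2 and Mobp lie right of 0, Bcas1 and Ugt8a left of it, and Mobp has the widest interval.

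Olig2 encodes the basic helix-loop-helix factor that specifies the lineage and stays on in it. In GRCm38 it spans 91225457 to 91228677 of chromosome 16, plus strand, with 1 annotated transcript. Its mean normalized count was 50394, higher than that of 98.3% of listed genes. In the authors' deposited table the log2 fold change is 0.20, with SE 0.08, a DESeq2 adjusted p of 0.0415 and a 95% interval, computed from the SE, of 0.05 to 0.36. Olig2 thus stands close to the edge of the table, whose largest adjusted p is 0.0499, and is at rank 3269 of 3389 by p.

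Ptprz1 encodes a receptor tyrosine phosphatase of neural stem cells and oligodendrocyte progenitors, which binds pleiotrophin and contactin and restrains differentiation. It lies on chromosome 6 at 22875502 to 23052916, plus strand. The mean normalized count of 174394 was the 6th highest in the table. Its log2 fold change was 0.37 (SE 0.07, DESeq2 adjusted p of 1.42e-06) in the authors' deposited table, with an interval of 0.24 to 0.50.

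Tcf7l2 encodes a TCF/LEF factor that acts with beta-catenin in Wnt signalling and is switched on for a time as progenitors differentiate. It lies on chromosome 19 at 55741820 to 55933654, plus strand, with 22 annotated transcripts, and Ppnr, a transcript on the same strand, lies within one of its introns. At a mean normalized count of 1196, its log2 fold change was 0.42 (SE 0.09, DESeq2 adjusted p of 1.69e-05) in the authors' deposited table, with an interval of 0.25 to 0.59. Its interval overlaps those of Olig2 and Ptprz1, so the sizes of these 3 rises cannot be ordered.

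Bcas1 marks premyelinating and early myelinating oligodendrocytes. It lies on chromosome 2 at 170346991 to 170427845, minus strand, and 2 antisense transcripts, Bcas1os1 and Bcas1os2, overlap it. The libraries keep the strand per the labels, but the strand setting of the quantification is not given in the sources used here. Sense and antisense reads from any shared exons may thus not have been told apart. None of the overlapping transcripts of Bcas1, Tcf7l2 and Mobp was listed. The authors' deposited table gives a mean normalized count of 492.2 and a log2 fold change of -1.03 (SE 0.11, DESeq2 adjusted p of 6.11e-17), with an interval of -1.25 to -0.80. This corresponds to 49.0% of the control level, and Bcas1 is the 56th gene of the table by p, far before the other 5 genes, of which Ptprz1 comes next at 558.

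Ugt8a encodes the enzyme that makes galactosylceramide, a main lipid of myelin. It lies on chromosome 3 at 125865271 to 125938619, minus strand. At a mean normalized count of 293.6, its log2 fold change was -0.63 (SE 0.14, DESeq2 adjusted p of 0.000157) in the authors' deposited table, with an interval of -0.91 to -0.34. The level in shKAP1 was 64.8% of that in control.

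Mobp encodes a small basic protein of compact myelin. It lies on chromosome 9 at 120149707 to 120181484, plus strand, with 7 annotated transcripts. The span of the transcript Gm38642 overlaps that of Mobp on the same strand, as Ppnr does Tcf7l2. Strand could not separate reads from any bases they share. All these overlaps are between whole gene spans, and overlap of exons was not checked. The mean normalized count of Mobp, 146.1, was the lowest of the 6 and higher than that of only 3.16% of listed genes. The log2 fold change was 1.03 (SE 0.24, DESeq2 adjusted p of 0.000186) in the authors' deposited table. Its 95% interval runs from 1.48-fold to 2.82-fold, the widest of the 6 genes. Mobp and Bcas1 have almost the same size of change in opposite directions, but the SE of Mobp is the larger.

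Ugt8a and Mobp, both genes of myelin, moved in opposite directions, and their start regions are shown because 2 of the other lineage genes encode factors that bind DNA. The sequences are RefSeq promoter windows in GRCm38.p6, from 250 bases before to 50 bases after the start, on the gene's strand (chr3:125938603-125938902, minus, for Ugt8a and chr9:120149492-120149791, plus, for Mobp). Capitals mark every match to an E-box (CANNTG, which bHLH factors such as OLIG2 bind), to the TCF/LEF motif ATCAAAG or CTTTGAT, and to the motif ACAAAG or CTTTGT of SOX factors, a family that includes SOX10, an activator of myelin genes, each searched on both strands.
Ugt8a: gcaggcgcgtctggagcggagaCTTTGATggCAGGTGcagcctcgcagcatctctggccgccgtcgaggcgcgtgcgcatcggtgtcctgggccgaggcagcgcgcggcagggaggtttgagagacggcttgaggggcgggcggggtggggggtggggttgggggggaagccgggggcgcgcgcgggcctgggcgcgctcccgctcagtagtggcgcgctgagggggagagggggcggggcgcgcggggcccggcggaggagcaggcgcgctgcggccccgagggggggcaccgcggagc
Mobp: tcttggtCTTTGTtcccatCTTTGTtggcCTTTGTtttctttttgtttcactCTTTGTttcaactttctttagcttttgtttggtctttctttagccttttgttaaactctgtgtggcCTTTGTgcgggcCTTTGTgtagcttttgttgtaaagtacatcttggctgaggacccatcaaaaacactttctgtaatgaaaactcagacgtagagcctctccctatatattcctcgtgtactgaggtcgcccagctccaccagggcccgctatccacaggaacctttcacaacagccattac
The Ugt8a window holds 1 TCF/LEF match, which starts 228 bases before the start site, and 1 E-box at 219 bases before it. The Mobp window holds neither, but 6 SOX matches, all CTTTGT, between 243 and 120 bases before the start. Over 32851 windows of the same length, 72.3% held an E-box, 3.73% the TCF/LEF motif and 18.7% the SOX motif. Mobp is the only window of the 32851 with 6 SOX matches, the most found in any. These 6 lie on the same strand in a T-rich stretch, and the count made no allowance for base composition or repeats. No SOX gene is among the 6 lineage genes, and Sox10 was not listed. Windows were given for 5 of the 6 genes. Those of Olig2, Ptprz1 and the upstream start of Tcf7l2 held none of these motifs, and a second Tcf7l2 start held 1 SOX match. The narrower E-box CATCTG or CAGATG, found in 17.2% of windows, was in none of theirs. A match describes letters and is not evidence of binding.

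The 6 genes differ far more in abundance than in fold change. With 4 shKAP1 and 3 control libraries in the fit, which the labels give but the table does not state, a mean normalized count and a fold change imply a mean for each group. These implied means were 53425 in shKAP1 and 46353 in control for Olig2, and 193109 in shKAP1 and 149441 in control for Ptprz1. Tcf7l2 came to 1341 normalized counts in shKAP1 and 1003 in control. For Bcas1 the implied means were 340.6 in shKAP1 and 694.4 in control, and for Ugt8a 238.3 in shKAP1 and 367.5 in control. Mobp came to 186.9 normalized counts in shKAP1 and 91.6 in control. The 1.29-fold rise of Ptprz1 is therefore a difference of 43667 normalized counts, against 95.3 for the 2.04-fold rise of Mobp.

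**Figure D2:**
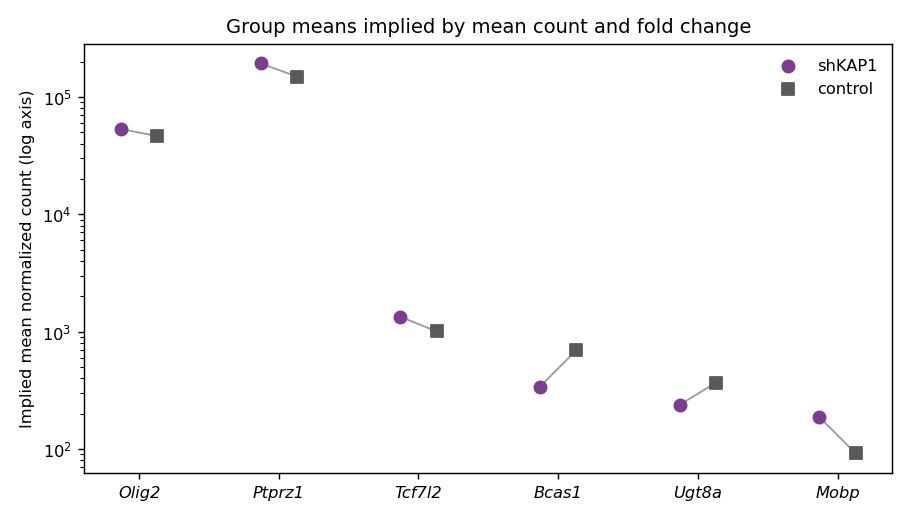
Implied mean normalized count (log axis) of each gene in shKAP1 (circles, left) and control (squares, right), computed from the authors' mean and fold change for 4 and 3 libraries, with no error shown because the table has no value per sample. Ptprz1 and Olig2 lie at 46353 or above in both groups, whereas Bcas1, Ugt8a and Mobp lie at 694.4 or below.

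Per kilobase of transcript, with the median length of a gene's annotated transcripts, the level over all samples was 42644 normalized counts for Ptprz1 and 19919 for Olig2. Tcf7l2 at 515.4 and Bcas1 at 485.4 were close to each other, followed by Mobp at 256.8 and Ugt8a at 78.5. The median listed gene had 1781 normalized counts per kilobase, so the 2 early genes stand above it and the 4 later ones below. The order of Mobp and Ugt8a depends on the length used: with the longest transcript, Mobp was at 44.5 and Ugt8a at 78.1 normalized counts per kilobase. By that length Tcf7l2 was at 322.0 and Bcas1 at 166.7, so their closeness depends on it too. Which transcripts the cells used is not shown by the table.

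The errors of the lower-expressed genes were near those of other listed genes of like abundance, and that of Olig2 was larger. Among listed genes whose mean lies within 1.5-fold of its own, the SE of Olig2 was 1.70 times the median of 0.05 (65 genes). For Ptprz1 that ratio was 1.31, over only 8 genes, and for Mobp 1.16 over 98. Tcf7l2, Bcas1 and Ugt8a were at ratios of 1.00, 0.94 and 0.97. Listed genes were selected for a large change relative to their error, so these medians describe listed genes only.

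**Figure D3:**
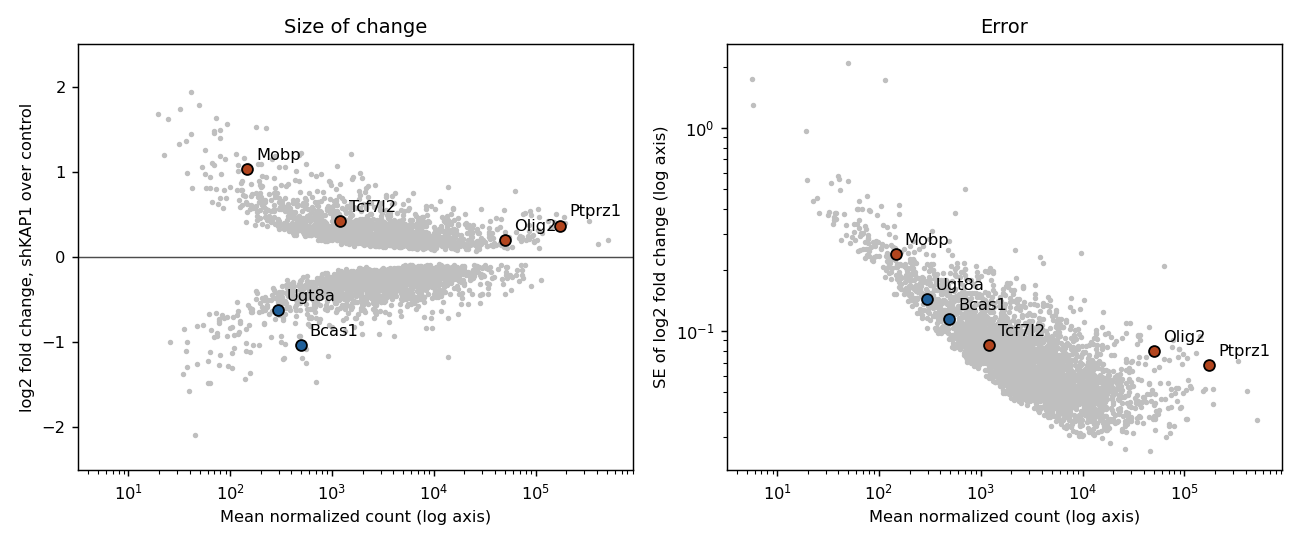
Log2 fold change of shKAP1 over control (left) and its SE (right, log axis) against mean normalized count (log axis) for all listed genes in grey and the 6 lineage genes in colour (red higher, blue lower); 5 listed genes lie beyond the left panel's axis. Mobp, Bcas1 and Ugt8a sit at low counts with wide errors, and Olig2 lies above most genes of its abundance in the right panel.

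The lineage as a whole was covered by 3 lists of stage genes, written with earlier results of these data known. Of their 84 genes, 19 were listed, 10 higher and 9 lower in shKAP1, and 65 were not listed. The 19 include the 6 lineage genes, listed by choice. Without them, 13 of 78 genes were listed, 6 higher and 7 lower, which is 16.7% beside the background of 26.3%. Genes that are not listed may have missed the threshold or may have had no adjusted p at all, which the table leaves unknown. The background counts only genes with an adjusted p. The shares of this and every other gene list here are therefore not over like sets with it, and a low share does not show depletion. Without the 6, the median log2 fold change over the few listed genes was -0.44 for the progenitor list (4 genes), -0.08 for the differentiating list (4 genes) and 0.29 for the myelinating list (5 genes), against -0.13 over all listed genes.

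Of the 22 progenitor genes other than Olig2 and Ptprz1, 4 were listed, 1 higher and 3 lower, which is 18.2% beside the background of 26.3%. The higher one was Olig1, the paralog and neighbour of Olig2, at 0.11 (SE 0.04, DESeq2 adjusted p of 0.0150) and a mean normalized count of 107053 in the authors' deposited table. The lower ones were Megf11, a transmembrane EGF-repeat protein gene, at -0.49 (SE 0.06), Cacng4, a regulator of AMPA receptors, at -0.53 (SE 0.09), and Tnr, the matrix glycoprotein tenascin-R, at -0.39 (SE 0.15) in the authors' deposited table. Pdgfra, Cspg4 and Sox10, defining markers of progenitors, were not listed.

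Among the 22 differentiating genes other than Tcf7l2 and Bcas1, 2 were higher and 2 lower, a share of 18.2% beside the 26.3% of all genes. Samd4b, a translational regulator, stood at 0.25 (SE 0.04) and Cyfip2, a subunit of the WAVE actin regulatory complex, at 0.29 (SE 0.07) in the authors' deposited table. The transcription factor genes Nkx6-2 at -0.41 (SE 0.13) and Zfp488 at -0.78 (SE 0.28) in the authors' deposited table were lower, both at low mean normalized counts of 304.0 and 216.5. Zfp488 promotes oligodendrocyte differentiation together with OLIG2. Gpr17 and Enpp6, markers of newly forming oligodendrocytes, were not listed.

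The myelinating list holds 34 genes other than Ugt8a and Mobp, of which 3 were higher and 2 lower, a share of 14.7% beside 26.3%. Car2, a carbonic anhydrase that glia use, was higher at 0.60 (SE 0.07, DESeq2 adjusted p of 6.30e-15), Gpr37, a receptor gene of maturing oligodendrocytes, at 0.90 (SE 0.19) and Nfasc, an adhesion molecule of the node of Ranvier, at 0.29 (SE 0.07) in the authors' deposited table. Tspan2, a tetraspanin of myelin, was lower at -0.51 (SE 0.14), as was Anln at -0.50 (SE 0.06) in the authors' deposited table. Anln encodes anillin, which also works in cytokinesis of every dividing cell. The myelin genes Mog, Mag and Cnp and the myelin regulator Myrf were not listed.

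**Figure D4:**
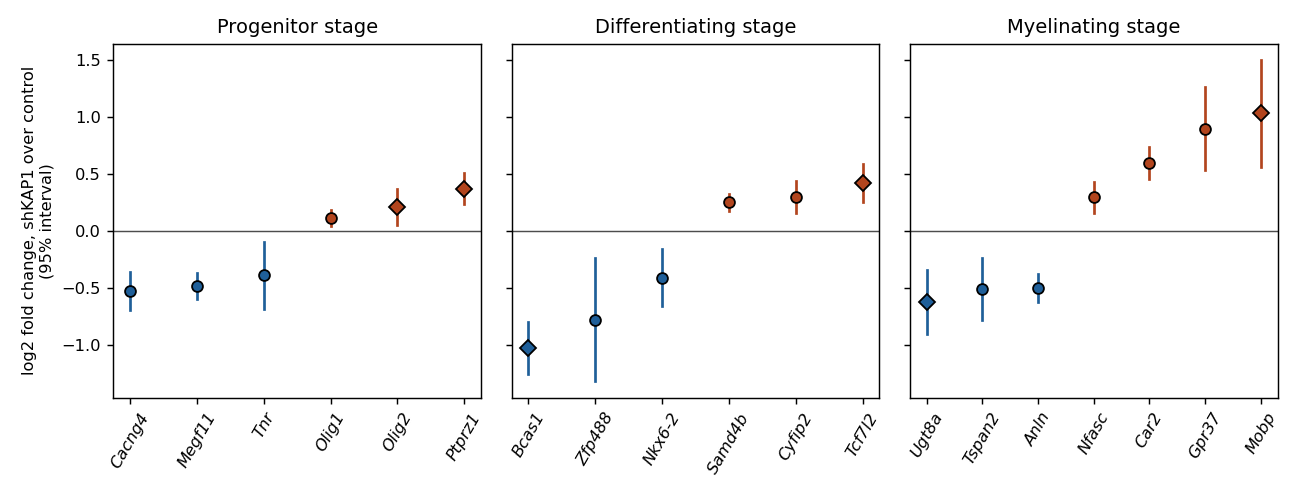
Log2 fold change of shKAP1 over control with 95% intervals for the listed genes of the 3 stage lists (diamonds, the 6 lineage genes described first; circles, the others; red higher, blue lower). The diamonds were chosen from these values, and the circles alone are 1 higher and 3 lower among progenitor genes, 2 and 2 among differentiating genes, and 3 and 2 among myelinating genes.

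Genes that act with the 6 were counted in the same way. Of 26 transcription factors and cofactors that promote the lineage, Olig2 and Tcf7l2 left out, 11 were listed, 10 of them lower in shKAP1, and Olig1 was the higher one. This share of 42.3% stands beside the background of 26.3%, with a median log2 fold change of -0.24 over the 11 genes. Its lower genes include Ezh2, the Polycomb methyltransferase, at -0.47 (SE 0.06), the chromatin remodeller gene Chd7 at -0.47 (SE 0.12), and the deacetylase genes Hdac3 at -0.23 (SE 0.04) and Hdac1 at -0.18 (SE 0.04) in the authors' deposited table. The authors' deposited table has Tcf12, a bHLH partner of OLIG2, at -0.19 (SE 0.05). Most of these cofactors act in many cell types. Most of the 11 listed genes had mean normalized counts above the median of 2885 over listed genes. At such counts small changes can be listed, as for Hdac1 (1.13-fold), whereas the background covers genes of all abundances. Olig1, Nkx6-2 and Zfp488 were also counted in the stage lists.

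Of 25 genes that hold differentiation back, 2 were higher and 3 lower, which is 20.0% beside the background of 26.3%. The higher ones, Id1 at 0.77 (SE 0.10) and Id2 at 0.52 (SE 0.14) in the authors' deposited table, encode proteins that bind bHLH factors or their partners and keep them from DNA. Sox5 at -0.35, Sox6 at -0.25 and Hey2 at -0.75 were lower in the authors' deposited table. SOX5 and SOX6 counteract SOX10 in the mouse spinal cord.

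Around Ptprz1, 9 of 24 ligand, partner and substrate genes were listed, 4 higher and 5 lower, which is 37.5% beside the background of 26.3%. Its listed matrix and adhesion partners Ncan at 0.50 (SE 0.05), Nrcam at 0.34 (SE 0.07) and Tnc at 0.28 (SE 0.10) in the authors' deposited table were higher, and Ncam1 at -0.26 (SE 0.06) and Tnr, named above, at -0.39 (SE 0.15) were lower. The scaffold gene Magi3 was at -0.25, Ctnnb1, which encodes beta-catenin, at -0.15, the cortactin gene Cttn at 0.21 and the adaptor gene Afap1l2 at -0.38 in the authors' deposited table. Ptn and Mdk, which encode the secreted ligands pleiotrophin and midkine, were not listed.

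Of 31 other genes of the Tcf7l2 family and the Wnt pathway, 7 were listed, 1 higher and 6 lower, which is 22.6% beside the background of 26.3%. Pygo1, a beta-catenin cofactor, was the higher gene, at 0.17 (SE 0.06) in the authors' deposited table. The feedback targets of the pathway Axin2 at -0.44 (SE 0.06) and Nkd1 at -0.57 (SE 0.15) in the authors' deposited table were lower. So were, by the authors' deposited table, the TCF corepressor gene Tle4 at -0.46 (SE 0.05), the receptor gene Lrp5 at -0.18, the kinase gene Csnk1a1 at -0.15 and Ctnnb1. The family members Tcf7, Tcf7l1 and Lef1 were not listed.

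Of 39 genes of galactolipid and sphingolipid metabolism other than Ugt8a, 10 were listed, 4 higher and 6 lower, which is 25.6% beside the background of 26.3%. Gal3st1 and Fa2h, which act next to it in making sulfatide and hydroxylated galactolipids, were not listed. Of the ceramide synthesis steps, Kdsr at -0.30 (SE 0.06) and Degs1 at -0.14 (SE 0.04) in the authors' deposited table were lower. Ugt8a's lower level stood beside higher Psap, which encodes the saposin precursor needed to degrade galactosylceramide, at 0.25 (SE 0.05), and higher Sgms1, a sphingomyelin synthase gene, at 0.32 (SE 0.07) in the authors' deposited table. St3gal5, the ganglioside GM3 synthase gene, was at -0.28 and the ceramide synthesis regulator genes Ormdl3 at 0.23 and Ormdl1 at -0.24 in the authors' deposited table.

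The position of the 6 genes was not part of the choice. Within 500 kb of their starts, the annotation holds 45 other protein-coding genes, of which 7 were listed, 15.6% beside the background of 26.3%. The neighbours may include genes with no adjusted p, whereas the background counts only genes with one. These shares are therefore not over like sets. Around Olig2, 5 of 19 neighbours were listed, and these 5 were higher in shKAP1, as was Olig2. They were Olig1 at 44.3 kb downstream, Ifnar2 at 0.51 (SE 0.07), Il10rb at 0.28 (SE 0.10) and Ifngr2 at 0.36 (SE 0.08) farther downstream, and Eva1c at 0.47 (SE 0.08) upstream, in the authors' deposited table. Ifnar2, Il10rb and Ifngr2 encode subunits of cytokine receptors, of type I interferon, the interleukin-10 family and interferon gamma. Ifnar1, between them, was not listed. The share of 26.3% of neighbours listed around Olig2 equals the background. The other listed neighbours were Zdhhc6 near Tcf7l2 at -0.18 and Eif1b near Mobp at -0.21 in the authors' deposited table, and none was listed near Ptprz1, Bcas1 or Ugt8a.

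**Figure D5:**
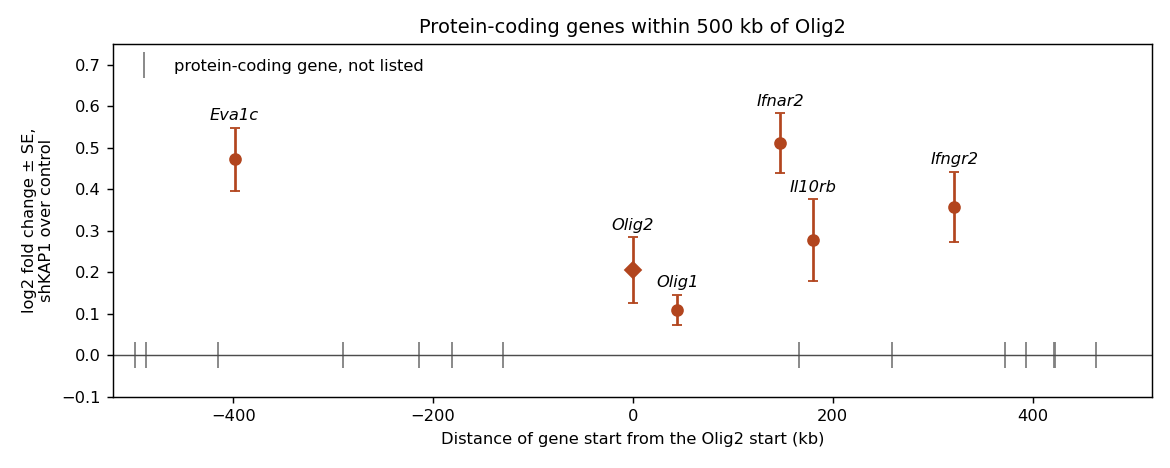
Protein-coding genes within 500 kb of the Olig2 start, by distance from it in kb (downstream to the right), with log2 fold change ± SE of shKAP1 over control for listed genes (circles; diamond, Olig2) and grey ticks at 0 for genes that are not listed. The 5 listed neighbours and Olig2 all lie above 0, among 14 neighbours that are not listed.

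Some measures moved with direction across the whole table. When the listed genes were divided into quintiles by the GC content of their transcripts, 25.1% of the lowest and 70.1% of the highest quintile were higher in shKAP1. Olig2, at 58.5% GC, is in the highest quintile and was higher, and Ugt8a, at 40.2%, is in the lowest and was lower. Ptprz1, at 40.5%, is in the lowest quintile and was higher. Tcf7l2 at 51.2%, Bcas1 at 52.2% and Mobp at 53.3% lie between. The part of base composition in these values was not tested.

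Markers of other cell types were listed as follows. Of 20 astrocyte genes, 4 were listed (20.0%, beside the background of 26.3%), all higher, with Cst3 at 0.51 (SE 0.09), Aldh1l1 at 0.29 (SE 0.05), Clu at 0.50 (SE 0.11) and Gpc5 at 0.42 (SE 0.14) in the authors' deposited table. Of 20 neuroblast and neuron genes, 7 were listed (35.0%), 2 higher and 5 lower. The authors' deposited table has the transcription factor gene Sp8 at 0.74 (SE 0.18) and the tubulin gene Tubb2b at 0.21 (SE 0.05), and among the lower genes Dcx, a microtubule protein gene of migrating neuroblasts, at -0.62 (SE 0.18). Of 15 genes of microglia and macrophages none was listed. Of 10 Schwann cell genes only Pou3f1 was (10%), higher at 0.81 (SE 0.25) in the authors' deposited table. Of 18 endothelial and mural genes, 2 were listed (11.1%, beside the background of 26.3%), both of smooth muscle. The authors' deposited table has Acta2 higher at 1.03 (SE 0.24) and Tagln at 0.87 (SE 0.22), with mean normalized counts of 132.8 and 127.0, close in abundance, size and error to Mobp. The table shows no level for markers that are not listed, and the part of other cell types in the values of the 6 genes was not tested.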

How the data were processed

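Libraries were poly(A)-selected and kept the strand (dUTP method), per the labels' protocols. According to the submitters' processing notes, reads went through Trim Galore 0.4.4, then kallisto and DESeq2 are named, with the build GRCm38. The authors deposited 1 table of DESeq2 columns: mean normalized count (a signal over all samples), log2 fold change, SE, signed fold and Wald statistic (2 scores), p-value and adjusted p-value, per the file headers. The sources used here give neither the model formula nor the libraries in the fit. Nothing was refitted, and depth per sample is unknown.

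The number of tested genes, 12905, is the adjusted p multiplied by the rank over the p-value, within 0.01 in 85.2% of lines. This step was checked on simulated p-values. Intervals of 95% are normal approximations. Symbols, coordinates, transcript lengths and GC content are from GENCODE M21, in which 3388 of 3389 identifiers matched without their version. Of the list symbols, 31 of 32 in the Wnt list and all in the other lists matched. Promoters are from RefSeq.

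The 6 genes and the 14 gene lists were chosen with earlier results of these data known, so lists are described by counts. Named by rule were the 6 genes, Trim28, every listed stage gene, up to 8 genes of each other list by adjusted p, and the listed neighbours. Outside this rule, some genes that are not listed were also named, such as Pdgfra, Mog, Lef1 and Ifnar1. Python 3.11.15, pandas 2.3.3 and scipy 1.17.1 were used.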

Additional observations from a re-analysis of the deposited data

How the results depend on the processing

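Only limits on the authors' table could be varied. At an adjusted p under 0.01, 5 of the 6 lineage genes were left, without Olig2. All 6 had mean normalized counts of 100 or more, and 5 matched with the identifier version, all but Tcf7l2. With a 2-fold minimum, 2 were left (Bcas1 and Mobp), and with a 95% interval wholly beyond 1.2-fold 3 (these and Ugt8a). At a Bonferroni limit, chosen after seeing the data, 3 were left (Bcas1, Ptprz1 and Tcf7l2). By construction these limits list fewer genes. With the 6 genes included, progenitor genes went to 3 at an adjusted p under 0.01, 0 at 2-fold, 2 beyond 1.2-fold and 3 at the Bonferroni limit. Differentiating genes were 1 at 2-fold, 1 beyond 1.2-fold and 3 at the Bonferroni limit, and myelinating genes 1 at 2-fold and 3 at the Bonferroni limit. Within 250 kb, 3 of 19 neighbours were listed, a share of 15.8% beside 15.6% (7 of 45) within 500 kb. With the longest transcript, levels per kilobase were 21616 for Ptprz1, 322.0 for Tcf7l2, 166.7 for Bcas1 and 44.5 for Mobp. With 4 control libraries in place of 3, also chosen after seeing the data, no implied difference moved by more than 4.89%. The names of the control libraries skip a number that their titles do not. Whether a further control entered the authors' fit is not stated. No paired analysis was possible because values of single samples are absent from the table, and for the same reason no replicate could be left out.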
